A study of Mus musculus with 24 samples.

Results

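Expression of 10 genes of the transforming growth factor beta (TGF-beta) system was followed through experimental autoimmune myocarditis (EAM), a mouse model in which the heart is attacked after immunization with a cardiac myosin peptide. The genes were 4 ligand genes (Tgfb1, Tgfb2, Tgfb3 and Inhba), 3 receptor genes (Tgfbr1, Tgfbr2 and Tgfbr3), the SMAD genes Smad3 and Smad7, and Tgfbi, a response gene. They were picked by symbol out of 41388 Ensembl genes in the deposited count table, all 10 had a row there, and all 10 passed the low-count filter on each day. Bulk RNA was sequenced from a portion of 24 hearts, in 6 groups of 4, that is EAM and control at day 10 (D10), D15 and D21.

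All mice were male wild type Balb/c (BALB/cAnNCrl), 8 to 10 weeks old when immunized. EAM mice were given the MyHC-α peptide in supplemented complete Freund's adjuvant on day 0 and on day 7, with pertussis toxin on day 0. Control mice were given the same adjuvant with PBS and the same toxin, so adjuvant and toxin effects were present in both groups and no naive heart was included. Not every mouse of this strain need develop EAM, and the authors sought EAM hearts with inflammation where they could. At D10, however, they found raised myocardial CD45 cells or cardiac troponin I in no EAM mouse. Libraries held 15814863 to 24980864 counted reads. The 4 D21 EAM libraries carried a library code of their own and the other 20 shared another, so at D21 the library code and EAM cannot be told apart.

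TGF-beta ligands are secreted in a latent form, held in the matrix by binding proteins, and act once released. The active ligand brings together the type II receptor (Tgfbr2) and the type I receptor (Tgfbr1, ALK5), which phosphorylates SMAD2 and SMAD3, while Tgfbr3 (betaglycan) is a co-receptor that presents ligand, above all TGF-beta2. Inhba encodes the subunit of activin A, which signals through its own receptors to the same SMADs. Smad7 is an inhibitor that the pathway itself turns on. In the heart the system is best known for restraining inflammation and for driving fibroblasts to make matrix.

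The hearts expressed cardiomyocyte markers throughout, at a summed level of 8 genes of 30630 to 35680 CPM (reads of a gene scaled to the library total) in D15 controls and 8144 to 20860 in D15 EAM hearts. The summed level of 6 leukocyte markers, Ptprc (CD45) among them, was 123 to 142 CPM in D15 controls and 1334 to 1720 CPM in D15 EAM hearts. At D10, 1 EAM heart, replicate 1, stood apart with 1115 CPM, when the other EAM hearts had 209 to 426 CPM and the controls 152 to 267 CPM. The portions also differed in transcripts of atrial muscle. Myl7, the atrial myosin light chain, was at 46.0 to 125 CPM in D10 controls and 134 to 430.2 CPM in D10 EAM hearts, but at 389 to 612 CPM in D21 controls and 0.496 to 10.8 CPM in D21 EAM hearts, so its groups did not overlap on these days and differed in opposite directions. Markers of the mesothelium, which covers the heart, were also apart at D10, with 8.505 to 12.8 CPM over 5 genes in controls and 21.6 to 52.0 CPM in EAM hearts. Myl7 at D15 overlapped only through control replicate 4, at 63.9 CPM. The other D15 controls had 397 to 515 CPM, above every D15 EAM heart, at 67.1 to 371 CPM. The part of atrial and mesothelial content in the results was not tested on any day.

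At D15, 6 of the 10 genes rose in EAM hearts at a false discovery rate (FDR) below 0.01, and none fell. These were Tgfb1, Tgfb2, Inhba, Tgfbr1, Tgfbr2 and Tgfbi, and all but Tgfbr2 were induced, that is, at least 2-fold higher as well. Over all 15693 genes tested at D15, 33.2% were higher and 31.1% lower at this limit, 18.1% were induced and 12.9% repressed. In bulk tissue, fewer cells of a type and less RNA per cell cannot be told apart. The median log2 fold change was 1.15 over the 10 genes and 0.02 over all genes. At D10 and at D21 none of the 10 passed, where 0.0% of 15029 genes were higher and 0.0% lower at D10, and 4.71% of 15266 higher and 3.1% lower at D21. At an unadjusted p below 0.05, with the same edgeR test, 3 of the 10 were higher at D10 (9.71% of all genes higher, 5.54% lower), and 6 were higher and 2 lower at D21 (25.2% and 21.2%). The plot of fold changes by day shows the 6 genes that rose with their highest values at D15. Per kilobase of exon, Tgfbr2 had the highest mean level of the 10 in D15 controls (15.7 ± 1.16 CPM per kb, SD, n = 4) and Inhba the lowest (0.344 ± 0.0531), and in D15 EAM hearts Tgfbi was the highest (149 ± 23.7) and Inhba still the lowest (5.61 ± 1.27).

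**Figure D1:**
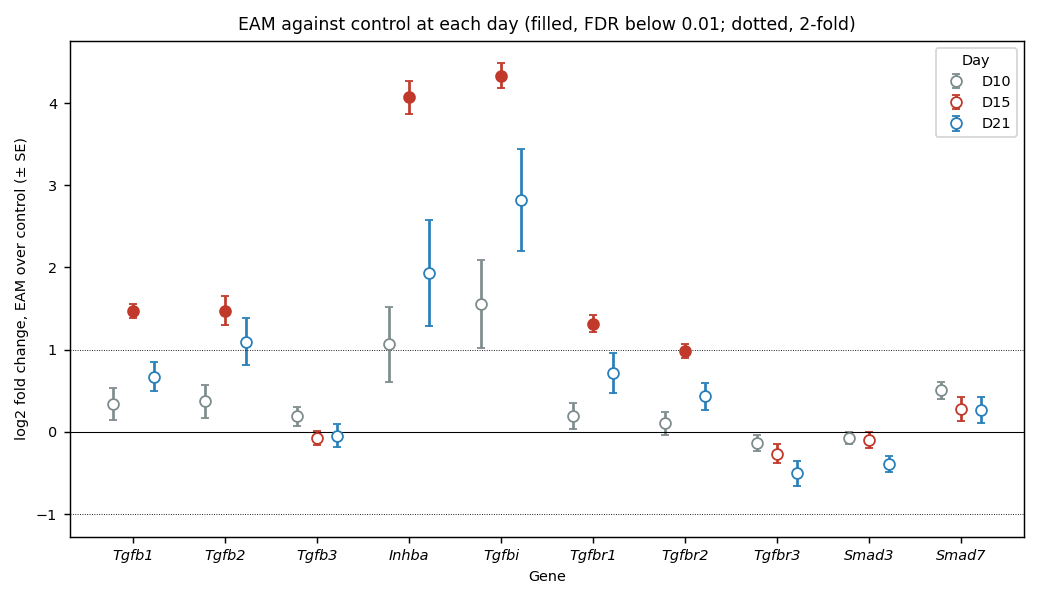
Log2 fold change of EAM over control hearts (vertical axis, edgeR, bars are 1 SE, 4 hearts a group) for each of the 10 genes (horizontal axis) at D10, D15 and D21. Filled points have an FDR below 0.01, and all 6 of them are at D15, from 0.98 for Tgfbr2 to 4.33 for Tgfbi.

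The promoters of 4 of the genes that rose at D15 are shown to compare the sequence at their starts. RefSeq promoters on GRCm38.p6 were found for 7 of the 10 genes. The 250 bases before the start were searched on both strands for CAGAC (the short SMAD site), GTCTAGAC (the SMAD palindrome), TGANTCA (AP-1), TATAAA (the TATA box) and CCGCCC (the GC box), none of which overlapped another in these sequences. Matches are in capitals, those on the other strand as their reverse complement. They are Tgfb1 (chr7:25686752-25687001, plus strand), Tgfb2 (chr1:186705990-186706239, minus strand), Inhba (chr13:16011601-16011850, plus strand) and Tgfbi (chr13:56609336-56609522, plus strand), the last cut to 187 bases at the start of the annotated gene.
Tgfb1: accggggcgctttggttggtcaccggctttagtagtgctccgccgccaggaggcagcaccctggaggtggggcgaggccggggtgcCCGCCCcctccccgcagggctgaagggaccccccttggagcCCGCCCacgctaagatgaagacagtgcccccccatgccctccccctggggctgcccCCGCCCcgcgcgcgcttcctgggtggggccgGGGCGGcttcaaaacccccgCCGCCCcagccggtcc
Tgfb2: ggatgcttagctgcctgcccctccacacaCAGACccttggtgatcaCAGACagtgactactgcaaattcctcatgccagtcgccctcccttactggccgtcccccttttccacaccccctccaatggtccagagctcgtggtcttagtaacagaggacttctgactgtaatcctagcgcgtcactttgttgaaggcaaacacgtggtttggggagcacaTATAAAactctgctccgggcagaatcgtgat
Inhba: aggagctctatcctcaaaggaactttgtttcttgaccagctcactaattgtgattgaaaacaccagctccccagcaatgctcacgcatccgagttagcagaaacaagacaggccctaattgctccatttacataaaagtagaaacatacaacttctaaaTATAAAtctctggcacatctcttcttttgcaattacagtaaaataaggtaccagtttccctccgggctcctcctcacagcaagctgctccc
Tgfbi: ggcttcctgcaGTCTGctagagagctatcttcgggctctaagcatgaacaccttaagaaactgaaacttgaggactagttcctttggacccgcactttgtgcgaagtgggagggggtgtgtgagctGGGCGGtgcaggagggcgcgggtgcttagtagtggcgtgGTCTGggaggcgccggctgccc
The Tgfb1 window held 5 GC boxes, no TATAAA and 75.2% G or C, whereas those of Tgfb2 and Inhba each held 1 TATAAA, with 53.6% and 43.2% G or C. All promoters of the table had a median of 52.4% G or C. CAGAC was found 2 times each for Tgfb2 and Tgfbi and not for Tgfb1 or Inhba, and 42.2% of 32851 promoters held it in the 250 bases before their start. The search for Tgfbi also covered 250 bases, and both of its matches lie in the 187 printed. TATAAA was in 12.4% of them, CCGCCC in 32.7%, TGANTCA in 6.75% and GTCTAGAC in 0.167%. Neither of the last 2 was in any of the 4 windows.

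Tgfb1 (chr7:25687002-25705077 on GRCm38), the isoform typical of immune cells, rose at D15. Its level in the 4 D15 EAM hearts was 148, 156, 123 and 159.9 CPM and in the D15 controls 54.4, 53.0, 56.7 and 53.8 CPM. Every EAM heart was above every control, as for 34.5% of all genes at D15 (35.9% were below), and the log2 fold change was 1.47 (SE 0.0888, FDR 7.96e-07). At D21 the EAM hearts had 112, 80.03, 69.8 and 114 CPM against 55.2 to 69.3 in controls. They were again above all controls, as for 17.8% of genes, but the change of 0.67 (SE 0.18, FDR 0.0247) did not pass. At D10 the EAM hearts had 98.1, 59.6, 67.9 and 51.0 CPM and overlapped the controls, 45.8 to 64.4 CPM.

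Tgfb2 (chr1:186622792-186705989), the isoform best known from development and the heart valves, also rose at D15. Its D15 EAM hearts had 38.73, 52.5, 28.6 and 48.4 CPM and its controls 17.1, 14.5, 16.3 and 14.2 CPM, a log2 fold change of 1.47 (SE 0.18, FDR 6.26e-05). The lowest D15 EAM heart was replicate 3, also the lowest in Tgfb1. At D21 the EAM hearts had 38.2, 29.9, 24.4 and 65.6 CPM, all above the controls at 17.97 to 19.5 CPM, as for 17.8% of genes (18.7% were below). The change was 1.10 (SE 0.29, FDR 0.0231). Replicate 4 was the highest of all 24 hearts, and without it the D21 change was 0.73. At D10, 3 EAM hearts were within the control range of 12.6 to 18.8 CPM and replicate 1 was above it at 28.0 CPM.

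Tgfb3 (chr12:86056745-86079041) did not pass on any day against the controls of that day. The D15 EAM hearts had 34.0, 34.6, 31.0 and 33.8 CPM and the controls 38.2, 38.4, 37.5 and 30.6 CPM, so the ranges overlapped, and the log2 fold change was -0.08 (SE 0.0830, FDR 0.409). Against the D10 controls in place of those of D15 it was 0.35 and passed. At D10 the EAM hearts had 26.4 to 33.0 CPM and the controls 24.2 to 31.7 CPM, a change of 0.19 (SE 0.11, FDR 0.392). At D21 it was -0.05 (SE 0.14, FDR 0.820), with 32.3 to 45.8 CPM in EAM hearts and 33.2 to 46.8 CPM in controls. Among controls Tgfb3 was at 24.2 to 31.7 CPM at D10 and 33.2 to 46.8 CPM at D21, a log2 difference of 0.62 (SE 0.12, FDR 0.0141) that did not pass (0.165% of all genes were higher and 0.0919% lower), and passed with DESeq2 (0.748% and 0.521% of all genes, FDR 5.36e-04, and up to 0.0255 over the alternatives that kept all hearts). Myl7 was also lower in the D10 controls (46.0 to 125 CPM) than in the D21 controls (389 to 612 CPM), so in this difference day and atrial content cannot be told apart. Tgfb3 also lies over Ttll5 on the other strand, and nothing used here says whether counting was by strand, so reads of this neighbour may be part of its level.

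The shares of the 3 TGF-beta ligand transcripts did not overlap between D15 EAM and control hearts. No ratio between them had an adjusted p below 0.0714 by the exact permutation test given here. The Tgfb3 share may hold reads of Ttll5. Per kilobase of exon, Tgfb1 was 10.8 ± 0.314 and Tgfb3 10.7 ± 1.10 CPM per kb in D15 controls, and 29.1 ± 3.26 and 9.86 ± 0.476 in D15 EAM hearts (SD, n = 4). The Tgfb1 share of the 3 TGF-beta ligands was 44.8% ± 2.37 in controls and 63.0% ± 0.982 in EAM hearts, the Tgfb2 share 11.1% ± 0.628 and 15.5% ± 2.33, and the Tgfb3 share 44.1% ± 2.46 and 21.5% ± 1.72. The log2 ratio of Tgfb1 to Tgfb3 was 1.54 higher in EAM hearts, without overlap, and that of Tgfb1 to Tgfb2 was 0.02 higher, with overlap. In a two-sided exact permutation test of 4 against 4 hearts the first gave the smallest p possible, 0.02857, and 0.0714 after adjustment over 15 such tests, while the second gave p = 0.857. At D21 the Tgfb3 share was 32.4% ± 8.05 in EAM hearts and 44.6% ± 5.75 in controls, and the ranges overlapped, as did those of the Tgfb1 share, 49.7% ± 3.48 and 43.5% ± 5.74. The Tgfb2 share at D21 was 17.9% ± 5.58 in EAM hearts and 11.9% ± 0.438 in controls, without overlap (13.7% to 26.1% against 11.5% to 12.5%). The log2 ratio of Tgfb1 to Tgfb3 was 0.68 higher in EAM hearts at D21 and that of Tgfb1 to Tgfb2 was -0.34 as EAM minus control, each with overlap and an exact permutation p of 0.0571 (adjusted 0.0857).

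**Figure D2:**
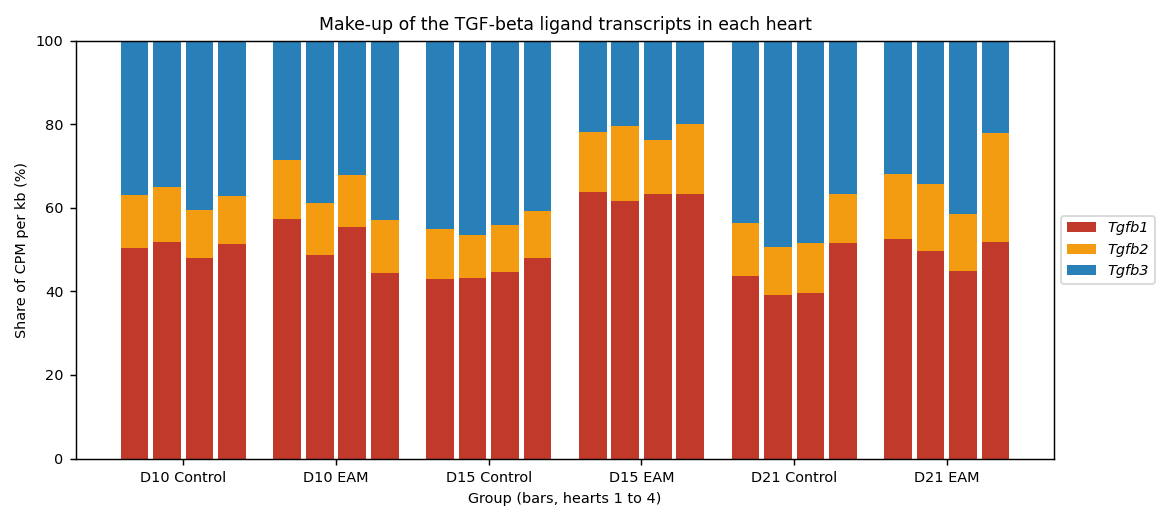
Share of Tgfb1, Tgfb2 and Tgfb3 in their summed CPM per kb of exon (vertical axis, %), 1 bar per heart, in 6 groups of 4. In the 4 D15 EAM hearts Tgfb3 takes at most 23.8%, below the 40.8% to 46.6% of the D15 controls.

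Inhba (chr13:16011851-16031621), the activin A subunit, was low in controls and had the second largest change of the 10 at D15. It was at 2.24, 2.48, 1.71 and 2.36 CPM in D15 controls and 32.5, 40.7, 26.2 and 44.2 CPM in D15 EAM hearts, a log2 fold change of 4.07 (SE 0.20, FDR 2.33e-07). At D10 the EAM hearts had 10.5, 3.002, 2.90 and 2.90 CPM and the controls 1.94, 2.25, 2.19 and 2.84 CPM. All 4 EAM hearts were above the controls, as for 4.41% of genes at D10 (3.75% were below), but 3 of them by little, and the change of 1.06 (SE 0.45, FDR 0.328) was 0.34 without replicate 1. At D21 the EAM hearts had 7.78, 4.74, 1.40 and 18.3 CPM against 1.97 to 2.64 CPM, so 3 were above all controls and replicate 3 was below them all. The change at D21 was 1.94 (SE 0.65, FDR 0.0488), and without 1 heart it ranged from 1.14 without EAM replicate 4 to 2.27 without EAM replicate 3.

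Tgfbi, a secreted matrix protein named for its induction by TGF-beta and also made by macrophages, had the largest change of the 10 at D15 (chr13:56609523-56639562). D15 EAM hearts had 631, 628, 441 and 548 CPM and D15 controls 26.7, 27.6, 33.2 and 26.8 CPM, a log2 fold change of 4.33 (SE 0.15, FDR 2.75e-08). At D10 the EAM hearts had 254, 38.0, 93.4 and 54.5 CPM against 30.4 to 44.6 CPM, a change of 1.56 (SE 0.53, FDR 0.328) and of 0.73 without replicate 1. At D21 they had 310.0, 171, 39.2 and 456 CPM against 31.4 to 41.4 CPM, a change of 2.82 (SE 0.62, FDR 0.0136). D21 EAM replicate 3 lay within the control range, and the other 3 were at least at 171 CPM.

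**Figure D3:**
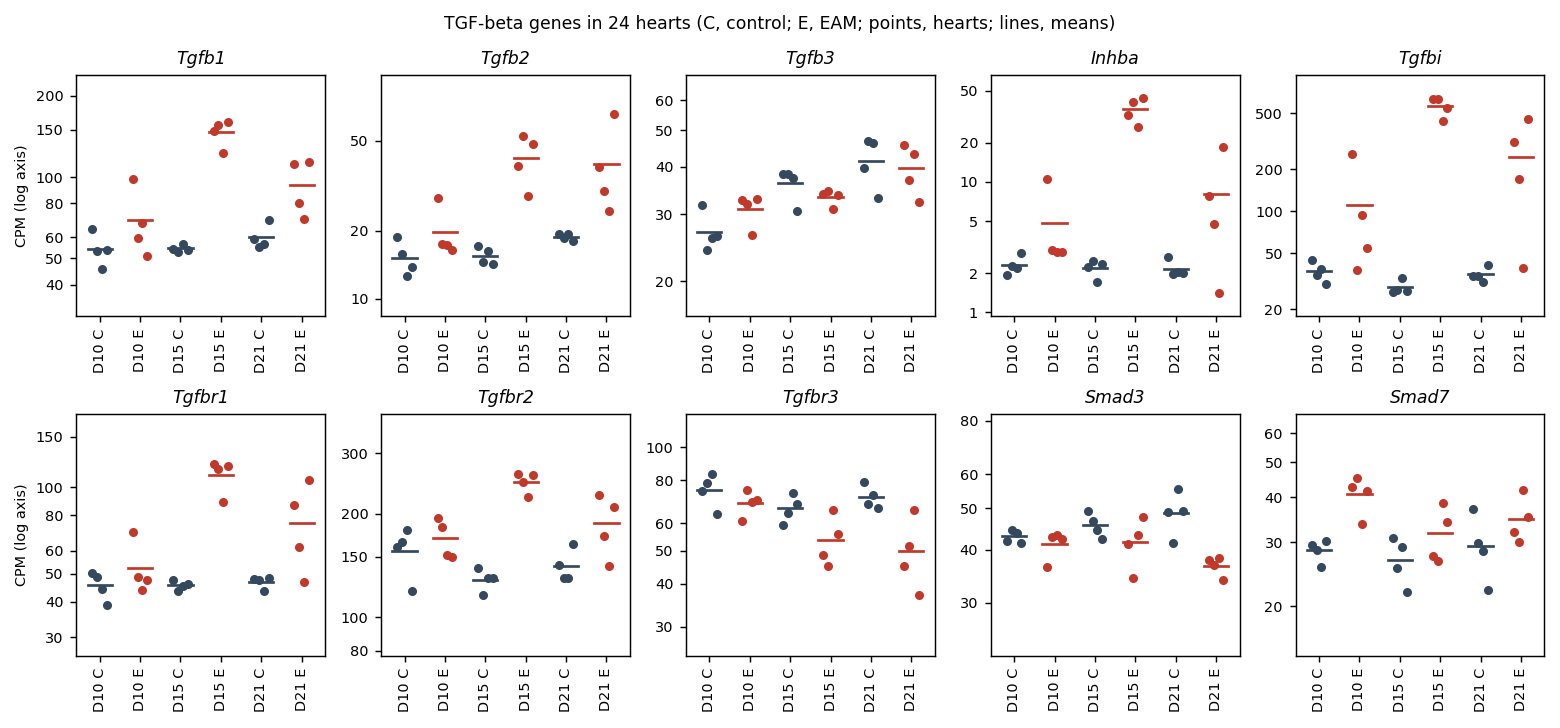
CPM (log axis) of each of the 10 genes in 24 hearts by day, with controls (C) in dark blue and EAM hearts (E) in red. Points are hearts and lines are group means. For Tgfb1, Tgfb2, Inhba, Tgfbi, Tgfbr1 and Tgfbr2 all D15 EAM hearts lie above the D15 controls, and for Inhba and Tgfbi 1 D21 EAM heart lies near or under its controls.

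The signalling receptors rose at D15 and the co-receptor did not pass. Tgfbr1 (chr4:47353222-47414931) was at 120.0, 115, 88.5 and 118 CPM in D15 EAM hearts and 47.4, 43.5, 45.3 and 46.2 CPM in controls, a log2 fold change of 1.32 (SE 0.10, FDR 3.85e-06). Tgfbr2 (chr9:116084293-116175360) was at 261, 248, 224 and 260.2 CPM and 139, 116, 129.9 and 130.1 CPM, a change of 0.98 (SE 0.0829, FDR 6.59e-06) that was just short of 2-fold. Both were without overlap, and 34.5% of all genes were above all controls at D15 (35.9% were below). Tgfbr3 (chr5:107106570-107289629) was at 48.6, 45.1, 65.7 and 55.7 CPM and 59.3, 64.4, 73.4 and 68.4 CPM, with 3 of 4 EAM hearts below all controls and a change of -0.27 (SE 0.12, FDR 0.0655). Without D15 EAM replicate 3 it fell, by a log2 fold change of -0.34 (FDR 0.00914, against up to 0.210 without another heart). The log2 ratio of Tgfbr1 to Tgfbr3 was 1.58 higher in EAM hearts and that of Tgfbr2 to Tgfbr3 1.26 higher, both without overlap (exact permutation p = 0.02857, the smallest possible, adjusted 0.0714). At D21 they were 1.17 and 0.94 higher, both with overlap (p = 0.0571 by the same exact test, adjusted 0.0857), and at D10 0.31 and 0.24 higher, with overlap (exact p = 0.143 and 0.0857, adjusted 0.179 and 0.117).

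At D21 the receptors kept these directions without passing. Tgfbr1 was at 86.4, 62.2, 46.6 and 106 CPM in EAM hearts against 43.6 to 48.2 CPM, a change of 0.72 (SE 0.24, FDR 0.0486). Tgfbr2 was at 228, 173, 141 and 209.8 CPM against 130.3 to 163 CPM, a change of 0.43 (SE 0.17, FDR 0.0728). In both, EAM replicate 3 was inside the control range and the other 3 above it. Tgfbr3 was at 45.1, 51.7, 65.7 and 37.1 CPM, below all controls at 66.6 to 79.2 CPM, as for 18.7% of genes, with a change of -0.51 (SE 0.15, FDR 0.0352). At D10 the 3 receptor genes had log2 fold changes of 0.19, 0.11 and -0.14, and all overlapped their controls.

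Smad3 (chr9:63646767-63757994), which carries the signal to the nucleus, did not pass at any day. At D15 it was at 41.3, 34.4, 43.2 and 47.6 CPM in EAM hearts and 49.2, 46.8, 44.4 and 42.4 CPM in controls, a change of -0.10 (SE 0.0983, FDR 0.391). At D21 the EAM hearts had 37.8, 36.8, 38.2 and 33.9 CPM and the controls 49.0, 41.5, 55.4 and 49.2 CPM. All EAM hearts were below all controls, as for 18.7% of genes (17.8% were above), and the change was -0.39 (SE 0.0971, FDR 0.0191). At D10 it was -0.07 (SE 0.0758, FDR 0.598).

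Smad7, the inhibitory SMAD, had its largest change at D10. The D10 EAM hearts had 42.8, 45.3, 33.8 and 41.5 CPM and the controls 29.4, 28.6, 25.7 and 30.3 CPM. All EAM hearts were above all controls, as for 4.41% of genes at D10 (3.75% were below). The log2 fold change was 0.51 (SE 0.10, FDR 0.328), with an unadjusted p of 9.64e-04 in edgeR's quasi-likelihood test. It passed with DESeq2 (FDR 0.00846) and not with edgeR's quasi-likelihood test or limma-voom (FDR 0.392). Over the alternatives that kept all hearts its FDR ran from 0.00264 with all 12 control hearts to that of limma-voom. Against the controls of D15 or of D21, 7 of whose 8 hearts had more Myl7 than any D10 control, the D10 change was 0.59 or 0.48 and did not pass. At D15 the EAM hearts had 27.6, 26.7, 38.6 and 34.2 CPM against 21.9 to 30.8 CPM, and at D21 32.0, 30.1, 41.9 and 35.4 CPM against 22.2 to 37.0 CPM. These overlapped, with changes of 0.28 (SE 0.14, FDR 0.105) and 0.27 (SE 0.16, FDR 0.228). The log2 ratio of Smad7 to Smad3 was higher in EAM hearts on every day, by 0.58, 0.38 and 0.67 at D10, D15 and D21, each without overlap (exact permutation p = 0.02857, the smallest possible, adjusted 0.0714). With hearts paired by number at D21, a pairing that the labels do not give, this ratio was higher in 4 of 4 pairs. An exact sign-flip permutation test gave p = 0.125, the smallest that 4 pairs allow.

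At D21 the calls depended on 1 heart. Without D21 EAM replicate 3, 7 of the 10 genes passed, against none with it: Tgfbi (3.16), Inhba (2.27), Tgfb2 (1.26), Tgfbr1 (0.88), Tgfb1 (0.79) and Tgfbr2 (0.55) rose and Tgfbr3 (-0.66) fell, all as log2 fold changes. In that fit 16.6% of all genes were higher and 10.4% lower. The summed leukocyte markers of D21 EAM replicates 1 to 4 were 1088, 604, 307 and 1321 CPM, against 105 to 187 CPM in controls, so replicate 3 was the lowest and still above the controls. Of the EAM hearts at D21, this heart was also the lowest in Tgfb1, Tgfb2, Inhba, Tgfbi, Tgfbr1 and Tgfbr2 and the highest in Tgfbr3. The part of the leukocytes in the D21 result was not tested. No gene of the 10 passed without any other single heart of D21.

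**Figure D4:**
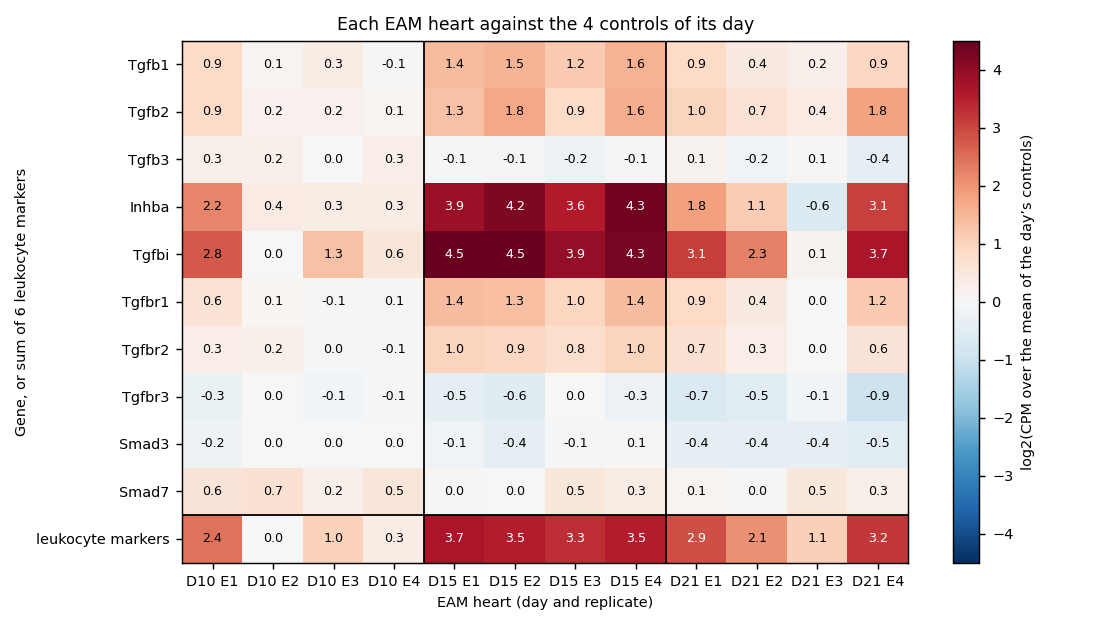
Log2 of the CPM in each EAM heart over the mean of the 4 controls of its day (colour and printed value), for the 10 genes and for the sum of 6 leukocyte markers (rows) in 12 EAM hearts (columns). Tgfbi, Inhba and the leukocyte markers are high in D10 EAM replicate 1 and in all D15 EAM hearts, and D21 EAM replicate 3 is the lowest D21 heart in all 3.

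The change from D10 to D15 was tested directly, as the EAM effect at D15 minus that at D10 in a fit of all 24 hearts. It was larger at D15 for 5 genes, and smaller for none, against 9.37% and 16.7% of all genes: Tgfb1 by 1.08 (SE 0.24, FDR 0.00259), Tgfbr1 by 1.07 (SE 0.26, FDR 0.00340), Tgfbr2 by 0.83 (SE 0.19, FDR 0.00309), Inhba by 2.95 (SE 0.73, FDR 0.00393) and Tgfbi by 2.73 (SE 0.73, FDR 0.00609). Tgfb2, at 1.05 (SE 0.34, FDR 0.0174), did not pass, but did in 4 of 24 fits that left out 1 heart, those without D10 EAM replicate 1, D15 EAM replicate 3 and D21 EAM replicates 3 and 4. It also passed in 2 of 7 alternative analyses that kept all hearts. The Tgfbi call was lost in 12 of the 24, each without a D10 or D15 heart, and the difference ranged from 2.45 to 3.56 over the 24. The other 4 calls stood in all 24. Taking the D15 effect from that at D21, none of the 10 passed, and Inhba was at -2.13 (SE 0.71, FDR 0.0315) and Tgfb1 at -0.78 (SE 0.24, FDR 0.0207). From D10 to D21 none of the 10 passed either. Of all genes, 8.47% were higher and 3.66% lower in the D21 minus D15 test (0.919% and 0.956% when hearts were blocked by replicate number), and 0.0981% and 0.815% in the D21 minus D10 test (0.0674% and 0.447% when blocked). At an unadjusted p below 0.05, 6 of the 10 were lower in the first (17.3% of all genes, 23.4% higher) and 1 was lower in the second (9.52%, 8.52% higher).

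The rest of the pathway was described through 7 lists of other TGF-beta family genes. The lists share 5 genes, each in 2 of them, so their counts are not separate: Ltbp2 is in the latency and response lists, Skil and Pmepa1 in the SMAD and response lists, and Smad6 and Smad9 in the SMAD and BMP response lists. Of 13 genes for latency and activation, 10 rose and 3 fell at D15, where 33.2% of all genes were higher and 31.1% lower, and their median change was 0.97 (log2). Ltbp2, a matrix protein of the latent TGF-beta binding family, rose from 6.49 ± 0.895 to 48.8 ± 22.2 CPM (SD, n = 4, log2 fold change 2.95). Thbs1 (thrombospondin 1), which can release TGF-beta from its latent complex, rose from 15.2 ± 3.03 to 102 ± 17.6 CPM, a log2 fold change of 2.78. Itgb6, of the integrin that activates latent TGF-beta on epithelia, fell from 36.4 ± 5.79 to 10.2 ± 3.25 CPM, and Ltbp4, which holds latent TGF-beta1, fell from 497 ± 93.3 to 174 ± 66.3 CPM. Their log2 fold changes were -1.80 and -1.48. At D21 Ltbp2 alone of the 13 passed, at 2.39 (4.71% of all genes were higher and 3.1% lower), and none did without any 1 control or EAM replicate 1 or 2, whereas 4 rose and 3 fell without EAM replicate 3.

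Among 16 genes known to respond to TGF-beta, 12 rose and 1 fell at D15 (33.2% and 31.1% of all genes), with a median of 2.31, and 8, Ltbp2 among them, rose and 1 fell at D21 (4.71% and 3.1% of all genes), with a median of 2.13. Timp1, an inhibitor of matrix proteases, rose from 5.73 ± 1.09 to 472 ± 38.5 CPM and Lox, which crosslinks collagen, from 11.4 ± 2.05 to 647 ± 241 CPM at D15, log2 fold changes of 6.40 and 5.86. Both passed at D21 as well, at 5.43 and 4.496. The gene that fell at D15 was Acta2 (smooth muscle actin), from 626 ± 113 to 213 ± 20.4 CPM, and the one that fell at D21 was Comp, a cartilage matrix protein, from 17.5 ± 1.10 to 3.81 ± 1.55 CPM. At D15 the same numbers rose and fell in each fit without 1 heart, but at D21 the 8 genes became 0 in each of the 4 fits without 1 control, 1 without EAM replicate 1 or 2, 7 without replicate 4 and 9 without replicate 3. The D15 rise went with 10 of 10 monocyte and macrophage markers, 7 of 7 neutrophil markers and 8 of 8 T cell markers higher, and with 8 of 8 endothelial and 7 of 8 cardiomyocyte markers lower. Without any 1 EAM heart only 5 T cell markers were tested. The rest met the low-count filter through the EAM hearts alone, where they were high, so their calls are no separate support. Fibroblast markers were 3 higher and 1 lower of 8, and their summed level was 3263 to 3896 CPM in controls and 5871 to 11020 CPM in EAM hearts. Col1a1 and Col1a2 are in both the fibroblast and the response list, so these counts are not separate. Dcn is in both the fibroblast and the antagonist list. Of 8 mural cell markers, Acta2 among them, 5 were lower and none higher, and their summed level was 2091 to 2616 CPM in controls and 751 to 1156 CPM in EAM hearts. At D21, 8 of 8 T cell, 6 of 10 monocyte and macrophage and 1 of 7 neutrophil markers were higher and none lower (0 in each of these 3 lists without any 1 control or EAM replicate 1 or 2). A marker can meet the low-count filter through the 4 EAM hearts alone, which limits what 8 of 8 T cell markers shows. The summed T cell markers were 21.0 to 89.0 CPM in EAM hearts and 3.32 to 4.66 CPM in controls. The summed fibroblast markers were 4659 to 9212 and 3608 to 4519 CPM, with 2 of 8 higher and none lower. The summed mural cell markers were 951 to 2088 and 2451 to 2600 CPM, and none of the 8 passed. The part of these cells in the gene changes was not tested.

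The other 5 lists had fewer calls each. Of 11 other ligand genes, 3 rose and 2 fell at D15, with a median of -0.42, shares not above those of all genes (33.2% higher and 31.1% lower). Gdf15, a stress-induced ligand, rose from 4.604 ± 2.02 to 28.8 ± 12.9 CPM and Inhbb, the activin B subunit, rose from 5.48 ± 1.03 to 27.3 ± 10.7 CPM, while Bmp7 fell from 3.48 ± 0.448 to 0.832 ± 0.151 CPM and Inha, the inhibin subunit, fell from 5.02 ± 0.822 to 2.34 ± 0.235 CPM. Of 8 secreted antagonists tested, 4 rose and none fell at D15, with a median of 1.06. Fst (follistatin) and Fstl3, both of which bind activin, rose from 2.24 ± 0.628 to 14.0 ± 4.798 CPM and from 5.89 ± 1.08 to 19.7 ± 4.42 CPM, log2 fold changes of 2.67 and 1.78. Neither passed at D21, where they were 0.87 and 1.22.

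Of 10 other receptors, 4 rose and 4 fell at D15, with a median of 0.04, shares near those of all genes (33.2% and 31.1%), and 2 rose and 3 fell without D15 control replicate 4. Acvr1b, the type I receptor for activin (ALK4), rose from 34.2 ± 2.95 to 68.3 ± 4.08 CPM and Acvrl1 (ALK1) from 57.6 ± 3.80 to 80.2 ± 9.91 CPM. Acvr2b, a type II receptor for activin, fell from 3.01 ± 0.502 to 1.76 ± 0.359 CPM and Bmpr1a, a type I receptor for BMP, fell from 184 ± 9.85 to 108 ± 7.87 CPM. Of 15 other SMADs and regulators, 6 rose and 3 fell, with a median of 0.11, again near or below the shares of all genes. The nuclear co-repressors Tgif1 and Skil rose, by log2 fold changes of 2.49 and 1.20, and Smad9 and Zfyve9 (SARA) fell, by log2 fold changes of -1.40 and -0.67. Of 7 BMP response genes, Id2 (1.80) and Atoh8 (0.87) rose and Smad9 fell. At D21 these 5 lists held 1 gene that rose, Gdf15 (4.11), and 5 that fell (4.71% of all genes were higher and 3.1% lower). Those were Bmp10 and Hamp, which were at 196 and 13.6 CPM in controls and 0.177 and 0.189 CPM in EAM hearts, and Chrdl1, Acvr2a and Bmpr1a. Without any 1 D21 control none of these 6 calls was left, and without EAM replicate 1 or 2 there was 1 gene that fell in each of the ligand and BMP response lists and no other call, whereas without EAM replicate 3 each of the 5 lists held 1 to 3 genes that rose and 1 to 3 that fell (16.6% and 10.4% of all genes). At D10 their means were 123 and 19.1 CPM in EAM hearts against 0.522 and 2.35 CPM in controls, without passing, so on both days their groups were apart in the same direction as those of Myl7.

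**Figure D5:**
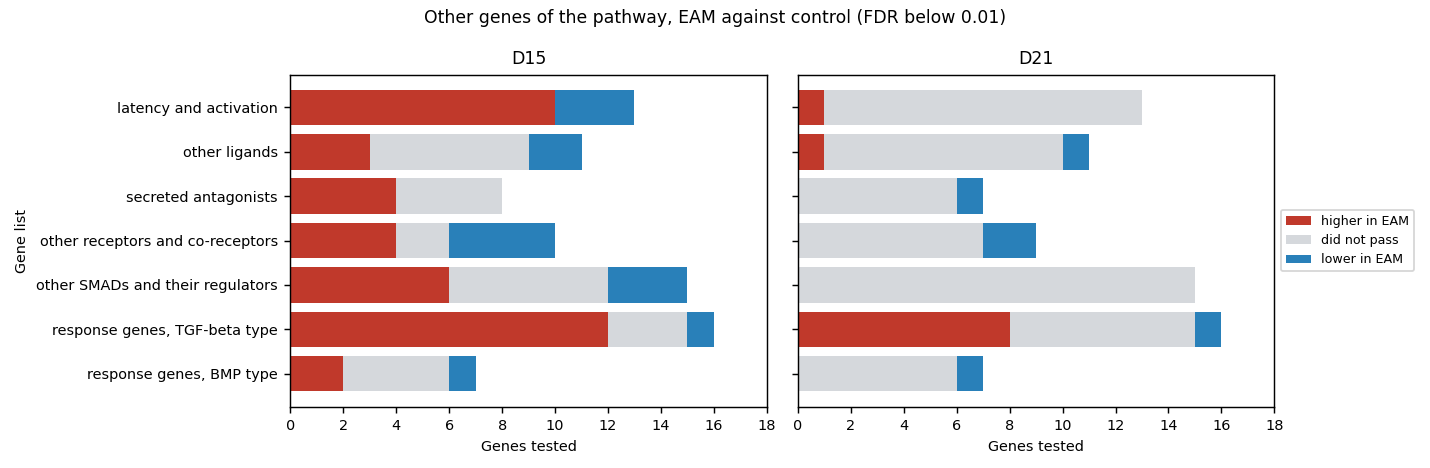
Number of genes tested in each of 7 lists of other TGF-beta family genes (horizontal axis) that were higher in EAM (red), lower in EAM (blue) or did not pass an FDR of 0.01 (grey), at D15 and D21. The lists of latency genes and of TGF-beta response genes hold 10 and 12 genes that rose at D15, and 1 and 8 at D21.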

How the data were processed

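RNA was measured by bulk RNA-seq in 24 hearts, 4 in each of 6 groups taken from the sample labels. The authors prepared strand-specific libraries (75 bp paired-end), aligned reads to GRCm38 with HISAT2 2.0.4, removed duplicates with Picard and counted them with featureCounts over Ensembl genes. The deposited values are raw counts per gene, with no normalization. The strand setting of the counting was not given in the sources used here. Libraries held 15814863 to 24980864 reads, at which 3 reads are 0.120 to 0.190 CPM, and 92 spike-in rows held 0 reads and were left out. Nothing in the labels says how far replicates were processed apart, so p-values measure the spread between these hearts.

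Each day was fitted on its 8 hearts with the quasi-likelihood test of edgeR 4.0.16 (limma 3.58.1, R 4.3.3), TMM scaling, a minimum of 10 reads in 4 or more hearts per gene, and Benjamini-Hochberg FDR over all genes tested. Higher or lower means an FDR below 0.01, and induced or repressed also at least 2-fold. Differences between days were contrasts in a fit of all 24 hearts. SE is the standard error of a log2 fold change, and CPM are counts scaled to the TMM-adjusted library total. Ratios used two-sided exact permutation tests. Levels were compared between genes only per kb of exon. The steps were tested on simulated data. Plots used Python 3.11.15 and matplotlib 3.10.9.

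The 10 genes and all lists were chosen with earlier results of these data known. All 10 are named, and per list the 2 largest rises and falls at D15 among genes passing with at least 1 CPM on average. Myl7, Bmp10, Hamp, Comp, Chrdl1 and Acvr2a were named after their values were seen. Same-numbered hearts deviated together at D21 (correlations 0.101, 0.171, 0.307 and 0.248), not in every pair at D10 (0.365, -0.0786, -0.0933 and 0.407) or D15 (0.0427, -0.0886, -0.0309 and -0.105), so the numbers were taken as pairs at D21. Alternatives were other tests (likelihood ratio, DESeq2 1.42.0, limma-voom), scalings, filters, limits, controls, the replicate block and leaving out each heart.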

Additional observations from a re-analysis of the deposited data

Results flagged for a closer look

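In 9 of the 60 sets of 4 hearts (10 genes in 6 groups), 1 heart lay far from the other 3 by Dixon's criterion, which chance meets in about 1 in 20 sets. D10 EAM replicate 1 was set apart in 3 genes, as the highest in Tgfb2 (27.97 CPM, the next 17.5 CPM) and Inhba (10.52 CPM, the next 3.002 CPM) and as the lowest in Smad3 (36.37 CPM, the next 42.3 CPM). D10 EAM replicate 3 was the lowest in Tgfb3 (26.45 CPM, the next 31.9 CPM), and D15 EAM replicate 3 the lowest in Tgfbr1 (88.46 CPM, the next 115.4 CPM). Among controls, D15 replicate 4, which had the least Myl7 of its group, was the lowest in Tgfb3 (30.62 CPM, the next 37.5 CPM). D15 control replicate 3 was the highest in Tgfbi (33.24 CPM, the next 27.6 CPM). D21 control replicate 3 was the lowest in Tgfbr1 (43.57 CPM, the next 47.5 CPM) and D21 control replicate 1 the highest in Inhba (2.643 CPM, the next 2.06 CPM).

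The EAM effect differed between D10 and D15 for 5 genes by a direct test (edgeR quasi-likelihood test, FDR below 0.01). On the log2 scale it was larger at D15 by 1.082 for Tgfb1, 1.074 for Tgfbr1, 0.828 for Tgfbr2, 2.947 for Inhba and 2.73 for Tgfbi.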

How the results depend on the processing

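The 6 rises at D15 passed in every alternative and without any 1 heart, except that Tgfbr2 missed the limit where a 2-fold change was also asked. In what follows, the shares of all genes higher and lower under the same setting are in parentheses. At D15, Tgfbr3 also passed, as lower, with all 12 control hearts (36.6% and 35.3%), and with D10 controls in place of those of D15 Tgfbr3 passed as lower and Tgfb3 as higher (32.9% and 30.1%). At D10, 1 gene (Smad7) passed with DESeq2 (0.413% and 0.0865%) and 3 genes (Smad7, Inhba and Tgfbi) did with all 12 control hearts (8.41% and 3.94%). At D21, 3 genes passed with the likelihood ratio test (13.5% and 8.17%), 5 with DESeq2 (15.9% and 10.8%), 1 with no low-count filter (3.97% and 1.86%), 8 with all 12 control hearts (25.1% and 18.2%) and 7 at an FDR of 0.05 (18.5% and 13.8%). Leaving out 1 heart gave 0 to 7, where 7 was without EAM replicate 3. Over all genes, those passing at D21 went from 719 higher and 473 lower to none without any 1 of control replicates 1 to 3, 0 and 9 without control replicate 4, 5 and 10 without EAM replicate 1, 9 and 34 without replicate 2 and 361 and 384 without replicate 4. For D21 minus D15 effects, 3 genes (Tgfb1, Tgfbr2 and Inhba) passed at an FDR of 0.05 (17.8% and 10.4%). At the FDR of 0.01, 0 to 3 passed without 1 heart, where 3 was without D21 EAM replicate 4 (16% and 8.35%). For D21 minus D10 controls, 1 gene (Tgfb3) passed with the likelihood ratio test (0.729% and 0.392%), with DESeq2 (0.748% and 0.521%) and in the 12 control hearts alone (1.61% and 0.986%), and 0 to 1 without 1 heart, where 1 was without D15 control replicate 4 (0.362% and 0.135%), D21 control replicate 4 (0.0613% and 0.0184%) or D21 EAM replicate 4 (0.178% and 0.0983%). The cause was not tested.

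With the replicate block at D21, 0 of the 10 genes passed, as without it, and the log2 fold change of Tgfbi was 2.39 (FDR 0.0270) and of Tgfb1 0.64 (FDR 0.0189). It changed no call of the 10 on any day, and over all genes at D21 it gave 635 higher and 226 lower in place of 719 and 473. In the D21 minus D15 test over all genes it gave 150 higher and 156 lower in place of 1382 and 598, and in the D21 minus D10 test 11 and 73 in place of 16 and 133, and again it changed no call of the 10. The ratios within pairs of hearts gave p = 0.125 at the lowest by an exact sign-flip permutation test, the smallest that 4 pairs allow.

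Changes of sign were all among values that had not passed with the controls of the same day. With D15 controls, chosen after seeing the data as were all swaps of controls, Tgfbr3 at D10 was 0.037. Tgfb3 at D10 was -0.16 with all 12 controls, -0.24 with D15 controls and -0.42 with D21 controls. At D15 Tgfb3 was 0.35 with D10 controls, where it passed, and at D21 it was 0.22 with all 12 controls, 0.57 with D10 controls and 0.15 with D15 controls. Scaling by total counts moved the median log2 fold change of all genes at D15 from 0.016 to 0.17, and with it Smad3 to 0.049 and Tgfb3 to 0.071 at D15, the D15 minus D10 effect of Smad3 to 0.071, the D21 minus D15 effects of Tgfb3 and Smad7 to -0.10 and -0.14, and Inhba in D21 minus D15 controls to 0.0075. That effect of Smad7 was -0.013 with DESeq2, -0.013 with RLE size factors and -0.014 with no filter. Without 1 heart, the values that crossed 0 ranged from -0.00099 to 0.18 for Tgfbr2, EAM D10, -0.14 to 0.014 for Smad3, EAM D15, -0.15 to 0.036 for Tgfb3, EAM D21, -0.13 to 0.050 for Smad3, effect D15 minus D10, -0.041 to 0.14 for Tgfb3, effect D21 minus D15, -0.11 to 0.14 for Smad7, effect D21 minus D15, -0.054 to 0.15 for Tgfb2, controls D15 minus D10, -0.067 to 0.052 for Tgfbr1, controls D15 minus D10, -0.071 to 0.094 for Tgfb1, controls D15 minus D10, -0.14 to 0.041 for Inhba, controls D15 minus D10, -0.16 to 0.0012 for Smad7, controls D15 minus D10, -0.13 to 0.045 for Inhba, controls D21 minus D15, -0.0030 to 0.24 for Smad7, controls D21 minus D15, -0.029 to 0.091 for Tgfbr1, controls D21 minus D10, -0.20 to 0.023 for Inhba, controls D21 minus D10, -0.15 to 0.033 for Tgfbi, controls D21 minus D10, -0.087 to 0.16 for Smad7, controls D21 minus D10, -0.10 to 0.0085 for the ratio of Tgfb1 to Tgfb2, D10, -0.068 to 0.11 for the ratio of Tgfb1 to Tgfb2, D15 and -0.042 to 0.28 for the ratio of Tgfb1 to Tgfb3, D10.

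Inhba had the fewest reads of the 10 genes, 33 to 52 in controls and 21 in D21 EAM replicate 3, so its low values carry the largest counting error. The design of 4 against 4 hearts limits a ratio to an exact permutation p of 0.02857.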

Other observations

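For each of the 10 genes, the genes with the most similar pattern were sought over 24 hearts by Pearson correlation of log2(CPM + 1) after subtracting group means, among 11696 genes. These are descriptions, since hearts share depth, disease severity and tissue content. Tgfb1 was closest to Ifnar2 (0.95) and Hps1 (0.95), Tgfb2 to Rtn4 (0.96) and Fkbp10 (0.94), and Tgfbr1 to Scpep1 (0.96) and Sh3pxd2b (0.95). Tgfbr2 was closest to Rasa3 (0.92) and Adgrd1 (0.91), and Inhba to Gnptab (0.95) and Slc7a11 (0.95), a cystine transporter. Tgfbi was closest to Bcl2a1a (0.97), whose near-identical copies make its counts uncertain, and Serpinb2 (0.97). Tgfbr3 was closest to Wipf3 (0.90) and Adcy6 (0.90). The highest values were lower for Tgfb3 (Rad51d, 0.82), Smad7 (Chrna2, 0.80) and Smad3 (Crocc, 0.79).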
